A study of Homo sapiens with 38 samples.

Results

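RNA was pulled down, by a method that tags sialic acid, from large extracellular vesicles of KG1a, a primitive human acute myeloid leukaemia line. It was compared with the total RNA of such vesicles, and whether the RNA recovered carries glycans was not tested here. The 6 libraries, of 38 in the study, were chosen by their titles: 3 of enriched glycoRNA, called rPAL RNA here after the method that the titles of the cell libraries name, and 3 of total RNA. All came from wild-type KG1a cells kept for 2 days without serum before the vesicles were isolated. Both kinds of RNA were extracted with RNAzol and columns and sequenced as small RNA, with adaptors ligated to both ends and a size selection on a gel. The labels do not say whether the 3 libraries of a group came from separate cultures, so the p-values here speak only to the scatter between libraries, which may be technical.

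In rPAL (periodate oxidation and aldehyde ligation), mild periodate turns the glycerol side chain of sialic acid into an aldehyde, a biotin handle is ligated to it, and streptavidin retrieves what is tagged. GlycoRNAs are small RNAs, among them Y RNAs, tRNAs, snoRNAs and snRNAs, that were described with N-glycans on the cell surface. Large vesicles bud from the plasma membrane or come from dying cells, and their RNA is dominated by fragments of tRNA, rRNA and other abundant cytoplasmic RNA.

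Total libraries held 9808448 to 12635848 counts and detected 22429 to 23289 features each, where a feature is a gene or RNA entry of the count table. The rPAL libraries held 10180261, 9284057 and 2869426 counts in replicates 1, 2 and 3 and detected 21215, 16467 and 7404 features. rPAL replicate 3 stood apart: its 10 most abundant features took 69.8% of its counts, against 31.1% and 39.6% in the other 2. Over 6225 features, log2(CPM + 1), where CPM is counts in 1000000 of the library total, correlated at 0.955 to 0.980 between total libraries and at 0.823 between rPAL replicates 1 and 2. The correlation of rPAL replicate 3 was 0.593 with replicate 1, 0.580 with replicate 2 and 0.422 to 0.445 with the total libraries. CD34, the surface antigen that marks KG1a, had 4.51, 10.6 and 12.2 CPM in total replicates 1 to 3 and 0.0982, 1.83 and 42.9 CPM in rPAL replicates 1 to 3. MPO, the neutrophil granule peroxidase, had no count in any of the 6 libraries, and the 12 listed neutrophil granule mRNAs summed to between 0 and 0.295 CPM. The 15 listed erythroid and plasma mRNAs, which do not include HP (haptoglobin, given below), summed to between 0 and 0.884 CPM.

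The sequences of some of the RNAs named below, called or not, are given first. GRCh38 positions and transcripts are those of GENCODE 29. HSPA8 holds the C/D box snoRNAs SNORD14C, SNORD14D and SNORD14E on its own strand, and the capitals mark the letters TGATGA, a form of the C box, and CTGA, the D box, where a script found them.
SNORD14C, chr11:123059335-123059422, minus strand: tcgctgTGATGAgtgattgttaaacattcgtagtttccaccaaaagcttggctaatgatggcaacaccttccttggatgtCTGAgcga
SNORD14D, chr11:123058909-123058995, minus strand: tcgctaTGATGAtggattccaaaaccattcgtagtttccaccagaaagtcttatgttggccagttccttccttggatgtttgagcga
SNORD14E, chr11:123058077-123058161, minus strand: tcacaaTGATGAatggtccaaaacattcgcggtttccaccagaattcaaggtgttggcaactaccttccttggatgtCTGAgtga
SCARNA6, a guide RNA of the Cajal body, is shown because it fell, and the RNase P RNA gene RPPH1 is shown because AL355075.4, the RNA gene that contains it, rose. No letters are capitalised in these.
SCARNA6, chr2:233288676-233288940, plus strand: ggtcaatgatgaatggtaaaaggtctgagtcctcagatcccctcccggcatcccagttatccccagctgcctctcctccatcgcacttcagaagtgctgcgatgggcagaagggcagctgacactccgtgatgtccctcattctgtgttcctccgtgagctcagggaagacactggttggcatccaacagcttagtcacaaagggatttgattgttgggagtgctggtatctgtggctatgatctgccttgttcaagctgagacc
RPPH1, first 200 bases, chr14:20343208-20343407, minus strand: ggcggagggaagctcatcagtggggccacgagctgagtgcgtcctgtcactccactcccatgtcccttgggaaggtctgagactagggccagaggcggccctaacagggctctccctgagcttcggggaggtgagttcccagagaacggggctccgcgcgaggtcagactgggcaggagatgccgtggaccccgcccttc
RNY1, a Y RNA bound by the Ro60 and La proteins, and miR-7977, a named miRNA that was not called in either direction, complete the set. The RefSeq mature sequence of miR-7977 (GRCh38.p14) has its seed, bases 2 to 8, in capitals.
RNY1, chr7:148987136-148987248, minus strand: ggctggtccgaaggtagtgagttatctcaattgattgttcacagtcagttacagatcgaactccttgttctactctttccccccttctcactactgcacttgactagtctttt
hsa-miR-7977, chr3:176515103-176515120, plus strand: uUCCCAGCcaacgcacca

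The first question was which kinds of RNA rPAL enriched or depleted relative to total vesicle RNA. Entries of miRNA precursors, mature miRNAs and unspecified ncRNAs took a smaller share in all 3 rPAL libraries than in any total library, as did snoRNA, rRNA pseudogenes and miscellaneous RNA, while RNase P RNA, protein-coding genes and processed pseudogenes took a larger one. The precursor share was 20.8%, 13.3% and 15.99% in total replicates 1 to 3 and 0.413%, 2.86% and 0.877% in rPAL replicates 1 to 3, or 16.7% ± 3.81 against 1.38% ± 1.30 (mean ± SD, n = 3 each). Unspecified ncRNA went from 5.45% ± 0.842 to 0.583% ± 0.503 and mature miRNA from 3.52% ± 0.590 to 0.467% ± 0.427 (n = 3). Protein-coding shares were 1.75%, 1.85% and 1.98% in total RNA and 2.02%, 2.21% and 7.84% in rPAL RNA, so replicates 1 and 2 lay just above the total libraries and replicate 3 far above. The shares of tRNA, rRNA, lncRNA, snRNA, 7SL (SRP) RNA and unprocessed pseudogenes overlapped between the groups. Of 15 classes, 9 did not overlap, 3 higher and 6 lower. The smallest exact two-sided permutation p that 3 against 3 libraries can give is 0.1, or 0.167 after Benjamini-Hochberg adjustment over the 15 classes, and all 9 had these values. The 95% Wilson interval of any share was at most 0.0575 percentage points to either side, for counting error only and far below the scatter between libraries.

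**Figure D1:**
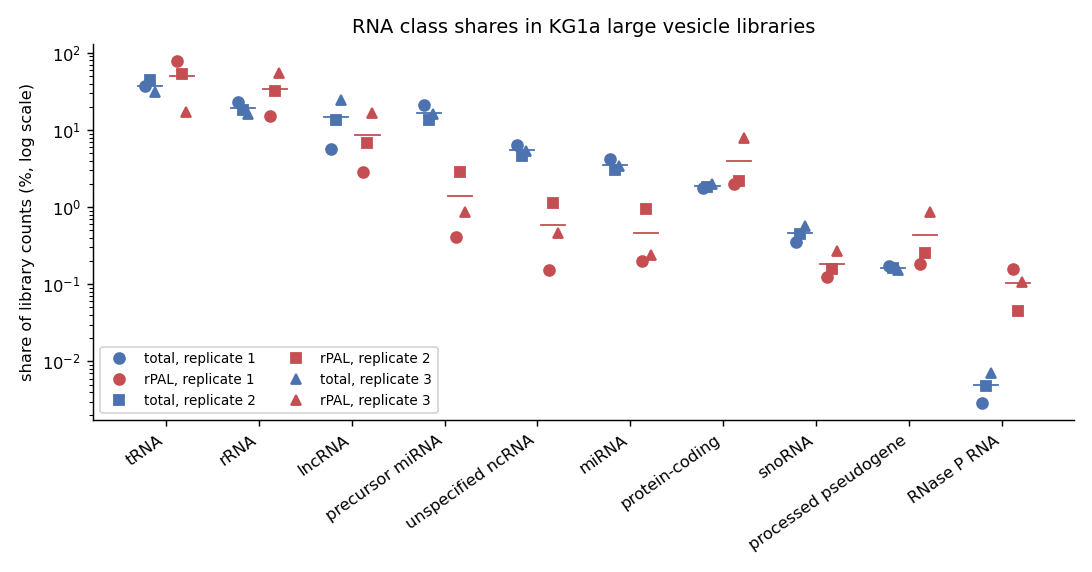
Share of each library's counts (%, log scale) held by 10 RNA classes in the 3 total (blue) and 3 rPAL (red) libraries of KG1a large vesicles, with short lines at the group means. The 3 miRNA-related classes lie lower in every rPAL library, RNase P RNA lies higher, and the tRNA and rRNA shares of the rPAL libraries spread widely, with replicate 3 lowest in tRNA (16.9%) and highest in rRNA (55.4%).

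Of 5857 features with enough counts to test, 599 (10.2%) passed an adjusted p under 0.05 in edgeR's quasi-likelihood test, 185 (3.16%) higher and 414 (7.07%) lower in rPAL RNA. All 3 rPAL libraries exceeded all 3 total libraries for 730 features (12.5%) and lay below them for 1536 (26.2%). These counts rested on single libraries. Without rPAL replicate 1, 2 or 3 the calls numbered 1030 (14.7%), 2116 (29.1%) and 1672 (22.7%). Without total replicate 1, 2 or 3 they numbered 0 (0.0%), 266 (3.64%) and 242 (3.37%), and in the first of these fits 1321 of 7427 features had an unadjusted p under 0.05 in edgeR. The median log2 fold change of all tested features was -0.30, and with DESeq2's scaling it was -0.70, so a change is read against that level. Fold changes here are log2 ratios of rPAL to total RNA after TMM scaling, with the standard error of the edgeR fit.

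**Figure D2:**
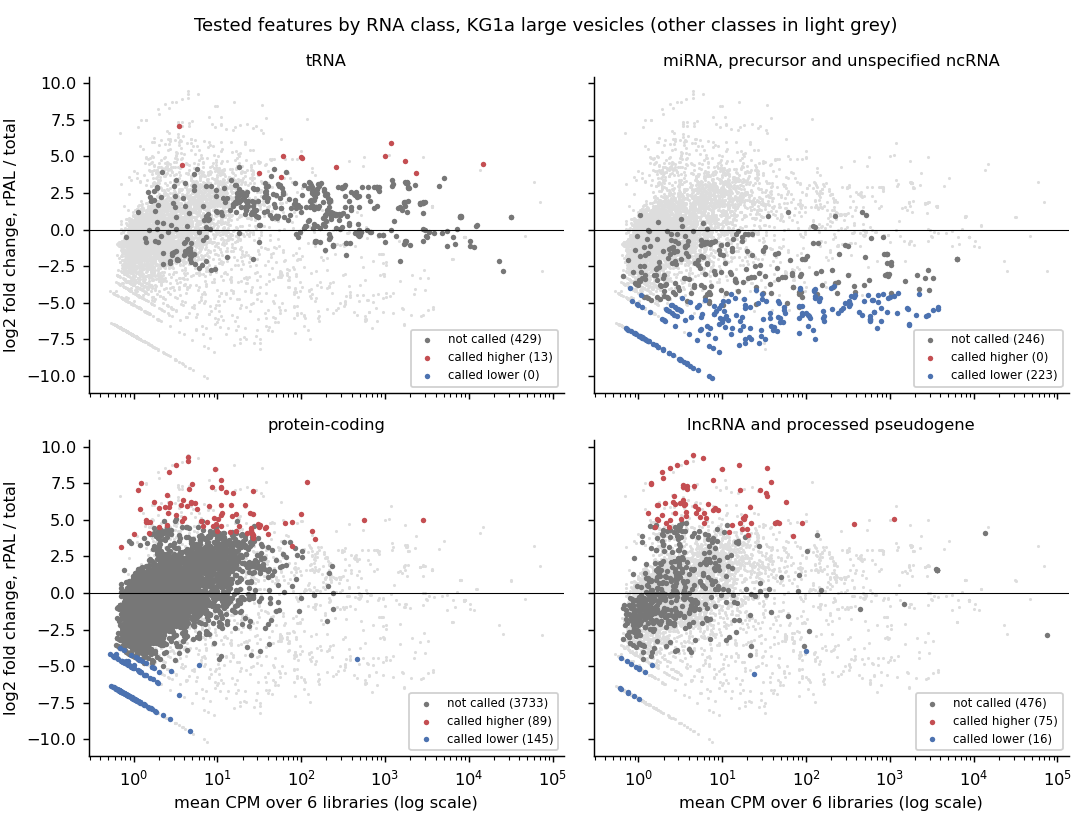
Log2 fold change of rPAL over total RNA against the mean CPM of the 6 libraries (log scale) for the 5857 tested features, with 1 group of RNA classes coloured in each panel and all other classes in light grey. All 13 called tRNA entries lie above 0, all 223 called miRNA, precursor and unspecified ncRNA entries lie below 0, and the straight lines of points at the lower left are features with no or very few rPAL counts.

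Depletion of miRNA-related entries was the widest change. Of 173 tested precursor entries 83 (48.0%) fell and none rose, with a median log2 fold change of -4.40. In 145 (83.8%) every rPAL library was lower than every total library, against 26.2% of all features. Of 128 unspecified ncRNA entries 73 (57.0%) fell (median -4.86), and of 168 mature miRNA entries 67 (39.9%) fell (median -3.89), again with none higher. Of all features 7.07% fell. With the entries that had no rPAL count set to a floor of 3 counts, the medians were -4.28, -4.58 and -3.78. In each rPAL library most precursors were low: 167, 154 and 163 of the 173 lay below every total library in replicates 1, 2 and 3. Of the 173, 41, 12 and 102 had no count in those replicates, so the shallow replicate 3 tells little about how far they fell. The median ratio of precursors to the mean of the total libraries was -4.03, -2.49 and -4.01 on the log2(CPM + 1) scale, so replicate 2 was the least depleted. The same medians over all tested features were -0.51, -0.13 and -1.19. In replicate 3 the precursor median was set largely by entries without a count. Without any 1 of the rPAL libraries the medians of the 3 classes stayed at or below -3.36. In those fits at most 2 entries of a class were called higher and 48 to 135 lower. Over all features 749 of 7028, 1498 of 7282 and 861 of 7356 were lower without rPAL replicate 1, 2 or 3. Without total replicate 1 no entry of these classes was called in either direction.

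The most abundant called precursor entry, URS000230F82E, had 71008, 36087 and 50023 CPM in total replicates 1 to 3 and 118, 756 and 23.7 CPM in rPAL replicates 1 to 3. It went from 5.24% ± 1.76 of counts to 0.0299% ± 0.0398, with a log2 fold change of -7.45 ± 1.55 (adjusted p = 0.0241, edgeR). A second entry, URS00007E379A, had 9041, 6359 and 6735 CPM in total RNA and 41.8, 436 and 68.0 CPM in rPAL RNA, a log2 fold change of -5.41 ± 1.29 (adjusted p = 0.0241, edgeR). In both, every rPAL library lay far below every total library, and rPAL replicate 2 was the highest of the 3. All precursor counts and 99.4% of mature miRNA counts lay on RNAcentral entries, for which no name was used here. Among 251 abundant entries of the 3 classes, 8 groups of 19 entries with near-equal counts (log2 counts within 0.2 in each library) joined different classes and held 22.3% of their counts, so the 3 falls are not independent there.

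Genes of named miRNAs held few counts. No member of the lists of 12 let-7 genes, 26 myeloid miRNA genes, 15 genes of the miR-17-92 clusters and 20 miRNA genes of other tissues and serum was tested, and each list summed to under 1 CPM in each library but for 3.34 CPM of the other-tissue list in rPAL replicate 1. MIR29A, a gene of a widely expressed miRNA, had 0.712, 0.557 and 0.510 CPM in total RNA and no count in rPAL RNA, at least 4.41-fold lower with the floor set at 3 counts over the 3 libraries. MIR7977 had 71.9, 19.6 and 19.1 CPM in total replicates 1 to 3 and 81.4, 147 and 23.0 CPM in rPAL replicates 1 to 3. Its groups overlapped, and its log2 fold change of 1.18 ± 1.06 did not pass the test (adjusted p = 0.554, edgeR). Total replicate 1 was at the level of rPAL replicate 1, and rPAL replicate 3 was near the other 2 total libraries.

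Transfer RNA, the adaptor that brings amino acids to the ribosome, was the most abundant class and the one in which the rPAL libraries differed most. It took 36.7%, 44.2% and 30.8% of counts in total replicates 1 to 3 and 78.4%, 53.5% and 16.9% in rPAL replicates 1 to 3, or 37.2% ± 6.73 against 49.6% ± 30.9 (n = 3). Replicates 1 and 2 lay above every total library and replicate 3 below every one. The difference of the means, 12.4 percentage points, was 28.7 without rPAL replicate 3 and -2.06 without rPAL replicate 1. Among the 442 tested tRNA entries, 344 in rPAL replicate 1 and 274 in replicate 2 exceeded every total library, while in replicate 3 126 exceeded and 208 fell below every total library. The median log2 fold change was 1.47, against -0.30 for all features, and it was 1.56 for the 100 most abundant entries and 1.45 for the other 342.

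Only 13 of the 442 tRNA entries (2.94%) were called higher and none lower, a share close to the 3.16% of all features. Without rPAL replicate 3, 186 of 457 were called higher and none lower, where 11.0% of all 7356 features were higher and 11.7% lower. Without any 1 of the total libraries the number was 0. The most abundant called entry, URS0000145C5E, had 1702, 1429 and 769 CPM in total RNA and 52856, 24689 and 6839 CPM in rPAL RNA, a log2 fold change of 4.51 ± 1.22 (adjusted p = 0.0309, edgeR). The next, URS000073A2F5, had 357, 333 and 263 CPM in total RNA and 7758, 4187 and 1304 CPM in rPAL RNA, a log2 fold change of 3.87 ± 1.14 (adjusted p = 0.0423, edgeR). In both, every rPAL library lay above every total library, and rPAL replicate 1 was the highest and replicate 3 the lowest of the rPAL libraries. Of the 13 called entries, 12 were highest in rPAL replicate 1. Those of the 13 with at least 600 counts over the 6 libraries fell into 11 groups of distinct counts. Near-identical tRNA genes can share reads, so the called entries need not be independent.

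**Figure D3:**
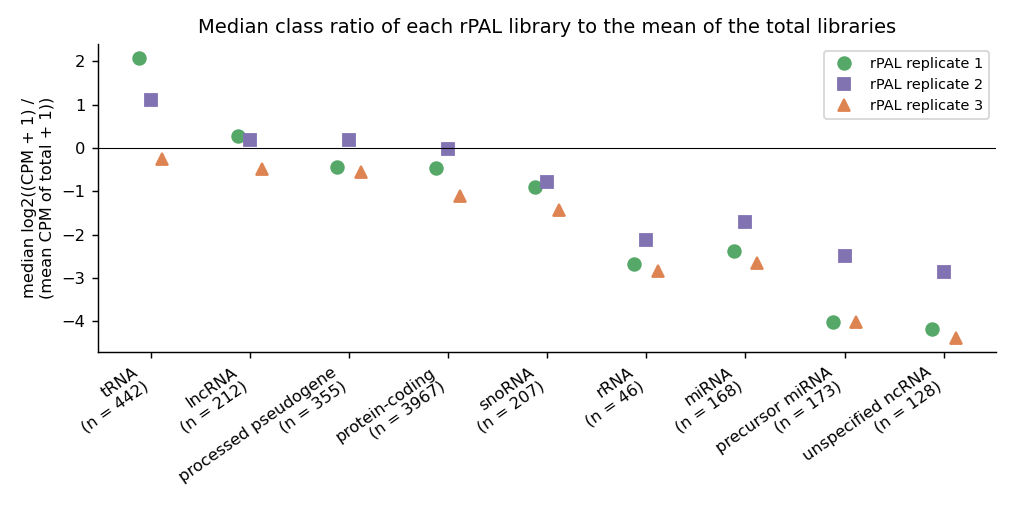
Median over the tested entries of each class of log2((CPM + 1) / (mean CPM of the total libraries + 1)) in each rPAL library. The miRNA-related classes lie below -1.7 in all 3 rPAL libraries, whereas the tRNA median is 2.08 in replicate 1, 1.11 in replicate 2 and -0.26 in replicate 3. Most entries of the miRNA-related classes had no count in replicate 3.

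Ribosomal RNA shares were 23.3%, 18.2% and 16.1% in total RNA and 15.0%, 31.6% and 55.4% in rPAL RNA, so the groups overlapped. The 2 rRNA entries with the highest mean in rPAL RNA together took 2.86%, 3.71% and 3.05% of total libraries and 5.34%, 12.03% and 50.3% of rPAL libraries 1 to 3. The other 75 rRNA entries took 20.5%, 14.5% and 13.0% in total RNA and 9.71%, 19.6% and 5.11% in rPAL RNA. Of 46 tested rRNA entries, 28 (60.9%) were lower in every rPAL library than in every total library, against 26.2% of all features. Many rRNA entries had near-equal counts and may share reads. The 39 with at least 600 counts over the 6 libraries fell into 17 groups of distinct counts. Counts of rRNA entries are therefore not counts of independent RNAs. Another 2 of the 46 (4.35%, against 12.5% of all features) were higher in every rPAL library, RNA5SP194 and the second most abundant of the leading pair. The median log2 fold change of the 46 was -2.84. RNA5S1 was the 1 entry called lower and RNA5SP194 the 1 called higher. RNA5SP194, a 5S gene copy on chromosome 5, had 0, 0 and 0.204 CPM in total RNA and 15.1, 1.62 and 3.49 CPM in rPAL RNA (log2 fold change 6.56 ± 1.80, adjusted p = 0.0319, edgeR). Without rPAL replicate 3, 25 of 46 were called lower and 2 higher, where 11.7% of all features were lower and 11.0% higher. RNA5-8SN2, a copy of 5.8S rRNA, had 13147, 10083 and 8126 CPM in total RNA and 6440, 13628 and 2043 CPM in rPAL RNA, with no call (log2 fold change -0.51 ± 1.02, adjusted p = 0.819, edgeR).

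The 5S genes that were called lower had near-equal levels in the 3 rPAL libraries. RNA5S1, a 5S ribosomal RNA gene, had 102, 90.0 and 111 CPM in total RNA and 11.5, 11.4 and 10.5 CPM in rPAL RNA, a log2 fold change of -3.27 ± 0.98 (adjusted p = 0.0440, edgeR). The rPAL libraries lay close together, replicate 3 included, and far below the total libraries. The pseudogenes RNA5SP248, RNA5SP500 and RNA5-8SP2 had log2 fold changes of -3.20, -3.17 and -3.27, and their reads may be shared with the 5S and 5.8S genes they copy. RNA5SP202, another 5S pseudogene, had 228, 157 and 213 CPM in total RNA and 111, 97.4 and 76.3 CPM in rPAL RNA, and was not called (adjusted p = 0.508, edgeR) although its groups did not overlap. All 17 genes named RNA5S together went from 0.171% ± 0.0226 to 0.0221% ± 0.0036 of counts (n = 3).

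RNase P RNA, the catalytic RNA that trims the 5′ leader of tRNA precursors, was the class with the highest ratio between the groups. Its single entry took 0.0029%, 0.0048% and 0.0071% of total libraries and 0.156%, 0.0448% and 0.107% of rPAL libraries 1 to 3, a ratio of the means of 20.7 and a log2 fold change of 4.32 that was called. All 3 rPAL libraries were above all total libraries, and replicate 2 was the lowest of them. AL355075.4, an RNA gene on chromosome 14 that contains RPPH1 on the same strand, had 0.396, 0.742 and 0.408 CPM in total RNA and 86.1, 26.7 and 86.8 CPM in rPAL RNA. Its log2 fold change was 6.83 ± 1.24 (adjusted p = 0.0241, edgeR), 6.93 without rPAL replicate 3, and it was called in 5 of the 6 fits that leave out 1 library. RPPH1 itself had no count in any library. AL355075.4 and the RNase P entry showed the same order of the rPAL libraries 1 and 2, and whether they count the same reads was not tested. AL355075.4 also overlaps the start of PARP2 on the other strand, which had a mean of 0.159 CPM in total and 0.0327 CPM in rPAL RNA.

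Among protein-coding genes, 89 of 3967 (2.24%) were called higher and 145 (3.66%) lower, both below the 3.16% and 7.07% of all features, with a median log2 fold change of -0.16. The fallers were mostly scarce. Their median level in total RNA was 1.85 CPM, 84 of the 145 had no rPAL count, and 1 of them, HSPA8, had a mean of at least 50 CPM in total RNA. Of 212 lncRNAs 42 (19.8%) rose and 7 (3.30%) fell, and of 355 processed pseudogenes 33 (9.30%) rose and 9 (2.54%) fell. Higher calls leaned on 1 library: of the 185 features called higher, 138 were highest in rPAL replicate 3, 44 in replicate 1 and 3 in replicate 2, and in 18 of them replicate 3 was over 10 times both others.

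The named genes that rose were unlike in kind. ATP5MG, a subunit of the mitochondrial ATP synthase, had 6.41, 2.13 and 2.04 CPM in total RNA and 101, 55.04 and 436 CPM in rPAL RNA, with a log2 fold change of 5.37 ± 1.19 (adjusted p = 0.0241, edgeR). For it and the other named risers every rPAL library lay above every total library, since the naming rule asked for it. TRIR, a telomerase RNA-interacting RNase, had 5.54, 2.78 and 4.38 CPM in total RNA and 68.4, 112 and 273 CPM in rPAL RNA (log2 fold change 4.83 ± 1.07, adjusted p = 0.0241, edgeR). CDV3 had 3.01, 2.32 and 4.08 CPM in total RNA and 28.0, 33.9 and 313 CPM in rPAL RNA (log2 fold change 4.81 ± 1.17, adjusted p = 0.0245, edgeR). These genes were highest in rPAL replicate 3, and the pseudogenes and the lncRNA that rose had the same library on top. The pseudogene AC020658.1 had 1.42, 0.835 and 1.02 CPM in total RNA and 25.2, 50.9 and 268 CPM in rPAL RNA (log2 fold change 6.22 ± 1.23, adjusted p = 0.0241, edgeR). HMGB1P25, a pseudogene of the chromatin protein gene HMGB1, had 13.9, 21.6 and 20.4 CPM in total RNA and 74.6, 65.4 and 2050 CPM in rPAL RNA (4.69 ± 1.33, adjusted p = 0.0360, edgeR). The pseudogene AC026403.1 had 7.91, 6.12 and 5.91 CPM in total RNA and 35.4, 63.7 and 301 CPM in rPAL RNA (3.87 ± 1.07, adjusted p = 0.0318, edgeR). In all 3 pseudogenes rPAL replicates 1 and 2 also stood clear of the total libraries. The lncRNA AL391684.1 had 3.09, 3.34 and 6.12 CPM in total RNA and 32.0, 10.4 and 476 CPM in rPAL RNA (4.80 ± 1.32, adjusted p = 0.0319, edgeR). Without rPAL replicate 3 the log2 fold changes of these 4 genes were 5.20, 2.06, 2.99 and 2.56, and all 4 were still called. Among the 11 named risers, 10 were highest in rPAL replicate 3 and 8 were called without it.

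Histone mRNAs, which end in a stem-loop in place of a poly(A) tail, gave 2 of the 11. HIST1H1E, a linker histone gene, had 21.7, 15.7 and 20.8 CPM in total RNA and 76.7, 582 and 161 CPM in rPAL RNA, and it was the 1 named riser with its peak in replicate 2. Its log2 fold change was 3.72 ± 1.11 (adjusted p = 0.0451, edgeR), and it was 2.01 and not called without rPAL replicate 2 (adjusted p = 0.122). HIST1H2BI, a core histone gene, had 11.6, 7.33 and 9.38 CPM in total RNA and 55.5, 16.2 and 707 CPM in rPAL RNA (log2 fold change 4.21 ± 1.26, adjusted p = 0.0457, edgeR), and it was not called without rPAL replicate 3 (adjusted p = 0.0685). These were the only 2 of 52 tested histone genes that were called, and the median of the 52 was -0.47. Of all features, 3.16% were called higher and 7.07% lower, with a median of -0.30. Of 70 tested ribosomal protein genes 1 was called higher, RPL11, a gene singled out after its values were seen. RPL11 had 13.9, 11.6 and 13.7 CPM in total RNA and 100.2, 124 and 207 CPM in rPAL RNA, with a log2 fold change of 3.24 ± 0.96 (adjusted p = 0.0430, edgeR), against a median of -0.62 for the 70. EEF2, the elongation factor that moves the ribosome along the mRNA, had 105, 82.9 and 89.7 CPM in total RNA and 221, 489 and 423 CPM in rPAL RNA and was not called (adjusted p = 0.232, edgeR).

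**Figure D4:**
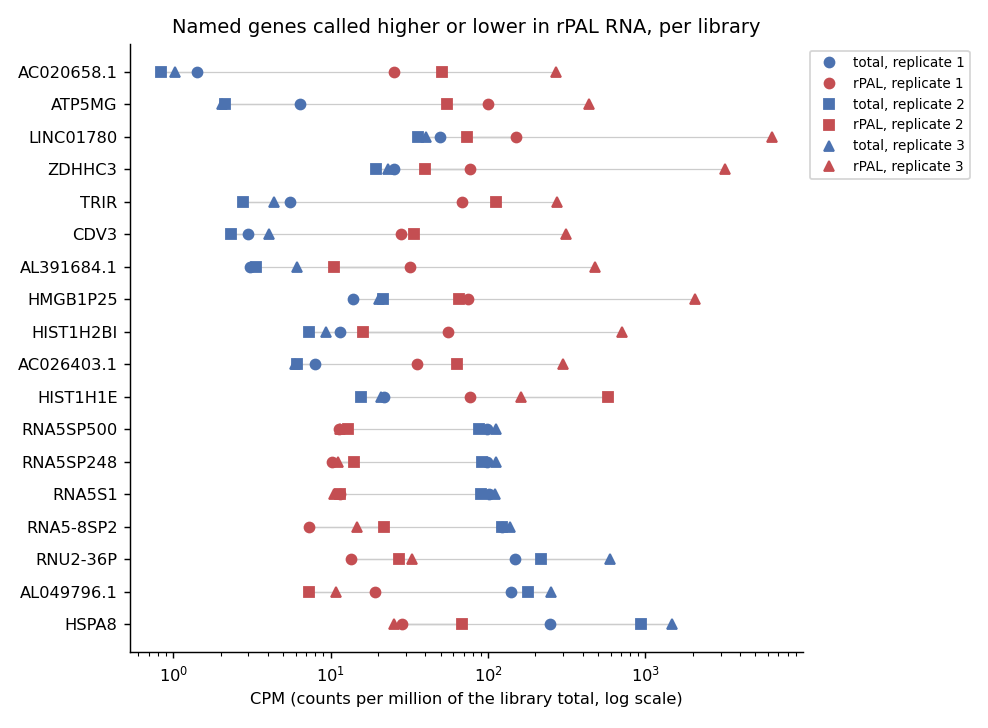
CPM (log scale) of the 11 named genes called higher and the 7 called lower in each of the 6 libraries, sorted by log2 fold change, with a grey line over the range of each gene. In the upper 11 rows rPAL replicate 3 is the right-most point of 10, while the 5S rRNA genes in the lower rows keep the rPAL libraries within a narrow band near 11 CPM.

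Several loci had their highest level by far in rPAL replicate 3. LINC01766, a lncRNA gene on chromosome 19, had 771, 948 and 1402 CPM in total RNA and 4424, 1981 and 72140 CPM in rPAL RNA, or 7.21% of the counts of rPAL replicate 3. Its log2 fold change of 4.09 ± 1.28 did not pass the test (adjusted p = 0.0535, edgeR), although every rPAL library was above every total library. HP, the gene of the haemoglobin scavenger haptoglobin, had 85.2, 109.8 and 157 CPM in total RNA and 309, 156 and 16417 CPM in rPAL RNA. rPAL replicate 2 lay inside the range of the total libraries, and the log2 fold change was 4.96 ± 1.505 (adjusted p = 0.0480, edgeR) with replicate 3 and 1.18 without it (adjusted p = 0.214). ZDHHC3, a palmitoyltransferase of the Golgi, had 25.3, 19.3 and 23.1 CPM in total RNA and 77.2, 39.6 and 3203 CPM in rPAL RNA, and LINC01780 had 49.8, 35.8 and 40.4 CPM in total RNA and 151, 73.9 and 6389 CPM in rPAL RNA. Both were called with all libraries (log2 fold changes 4.99 and 5.08) and neither without rPAL replicate 3 (1.53 and 1.58, adjusted p = 0.1 each, edgeR). DESeq2 gave no adjusted p for either of them or for HP. FP236383.2, a lncRNA in the ribosomal DNA region of chromosome 21, had 1473, 1484 and 1452 CPM in total RNA and 1845, 3152 and 12642 CPM in rPAL RNA and was not called (adjusted p = 0.342, edgeR). The 4 lncRNAs of that family of names together took 0.571% to 0.588% of total libraries and 0.729%, 1.26% and 4.99% of rPAL libraries. HP overlaps TXNL4B and ZDHHC3 overlaps EXOSC7 on the other strand, and both partners had means under 1 CPM in each group.

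The lncRNA share was mostly 1 gene without a symbol, ENSG00000286171.1, in total RNA. It took 4.27%, 12.1% and 23.2% of total replicates 1 to 3 and 0.713%, 4.28% and 0.476% of rPAL replicates 1 to 3, so that total replicate 1 and rPAL replicate 2 were level. Its log2 fold change of -2.86 ± 1.19 was not called (adjusted p = 0.133, edgeR). The lncRNAs other than this gene and LINC01766 held 1.35% ± 0.0585 of total and 4.31% ± 3.97 of rPAL counts, with 1.72%, 2.32% and 8.87% in the 3 rPAL libraries. The median lncRNA log2 fold change was 0.24, against -0.30 for all features, and -0.18 with DESeq2's scaling, against -0.70. Its sign depended on the scaling, while it lay above the median of all features under both.

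The 7 named genes that fell were 1 mRNA gene, 1 lncRNA, 1 snRNA pseudogene and 4 genes or pseudogenes of 5S and 5.8S rRNA. HSPA8, the gene of the constitutive HSC70 chaperone, had 246, 933 and 1474 CPM in total RNA and 28.3, 68.2 and 25.4 CPM in rPAL RNA. The groups did not overlap, and the log2 fold change was -4.48 ± 1.16 (adjusted p = 0.0270, edgeR). SNORD14E, which lies within HSPA8 on the same strand, had 38.7, 78.6 and 116 CPM in total RNA and 1.67, 3.02 and 0 CPM in rPAL RNA, a log2 fold change of -5.50 ± 1.35 (adjusted p = 0.0245, edgeR). Both were lowest in total replicate 1 and highest in total replicate 3. SNORD14C and SNORD14D had no count in any library. Whether reads counted for HSPA8 come from its mRNA or from the snoRNAs inside it was not tested. Of 37 tested genes on a list of snoRNA hosts, ATP5MG was called higher and HSPA8 lower, and the median of the 37 was -0.52. None of the genes found to overlap ATP5MG was a snoRNA, so its place on that list was not borne out here. SNHG3, the host of SNORA73A and SNORA73B, had 10.7, 41.9 and 69.5 CPM in total RNA and 0.0982, 6.25 and 0 CPM in rPAL RNA (adjusted p = 0.0880, edgeR), and GAS5 had 19.1, 21.5 and 25.1 CPM in total RNA and 9.23, 5.49 and 2.44 CPM in rPAL RNA (adjusted p = 0.302, edgeR). Neither passed the test, although in both no rPAL library reached a total library.

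Among Cajal body and spliceosomal RNAs some fell and none rose. SCARNA6, which guides modification of spliceosomal RNA, had 9.89, 74.2 and 107 CPM in total RNA and 0.197, 0.323 and 0 CPM in rPAL RNA, a log2 fold change of -8.18 ± 1.49 (adjusted p = 0.0241, edgeR). It was called in 5 of the 6 fits that leave out 1 library. Of 7 tested scaRNA entries 3 fell and none rose, and of 207 snoRNA entries 15 fell and none rose (median -1.15), or 7.25% lower against 7.07% of all features. RNU2-36P, a pseudogene of the U2 spliceosomal RNA, had 148, 219 and 594 CPM in total RNA and 13.6, 27.3 and 32.8 CPM in rPAL RNA (log2 fold change -3.89 ± 1.06, adjusted p = 0.0309, edgeR). RNU4-2, the U4 spliceosomal RNA, had 174, 45.5 and 168 CPM in total RNA and 17.7, 15.7 and 0 CPM in rPAL RNA but was not called (-3.41 ± 1.38, adjusted p = 0.121, edgeR). RNU5B-1, the U5 spliceosomal RNA, had 56.4, 19.0 and 46.1 CPM in total RNA and 16.5, 52.0 and 0 CPM in rPAL RNA, with overlapping groups and no call. AL049796.1, a lncRNA, fell from 140, 178 and 251 CPM to 19.2, 7.32 and 10.8 CPM (-3.96 ± 1.05, adjusted p = 0.0283, edgeR).

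Y RNAs, among the first glycoRNAs to be described, did not pass edgeR's test in either direction with all 6 libraries. RNY1, whose sequence is shown above, had 269, 287 and 369 CPM in total RNA and 28.9, 43.0 and 0 CPM in rPAL RNA, so that every rPAL library lay below every total library (log2 fold change -3.60 ± 1.42, adjusted p = 0.112, edgeR). Without rPAL replicate 3 it was called lower, at -2.97 (adjusted p = 0.0237). RNY4 had 24.5, 30.6 and 45.0 CPM in total RNA and 0, 3.66 and 0 CPM in rPAL RNA (-4.72 ± 1.57, adjusted p = 0.0649, edgeR). The outcome depended on the test. Both RNY1 and RNY4 were lower by DESeq2 (adjusted p = 0.0158 and 0.00207) and by limma voom (adjusted p = 0.0285 and 0.000997). In edgeR each was called in 1 of the 6 fits that leave out 1 library. RNY3 had 7.68, 6.77 and 7.75 CPM in total RNA and 21.8, 4.95 and 0 CPM in rPAL RNA, spread to both sides of the total libraries, and was called by none of these tests. No Y RNA gene had a count in rPAL replicate 3, where 0 counts allow up to 1.05 CPM (3 counts of its total, for counting error only). The same held there for the listed genes of vault RNA, 7SL RNA, spliceosomal snRNAs, scaRNAs and mitochondrial rRNA, each list at 0 CPM in rPAL replicate 3. These lists were matched by symbol and so leave out the RNAcentral entries. Over all entries, the 7SL (SRP) RNA class held 4518 counts in rPAL replicate 3 and the snRNA class held 2780. Neither class was therefore absent from that library. RN7SL1, the RNA of the signal recognition particle, had 8.39, 2.23 and 4.18 CPM in total RNA and 4.81, 8.19 and 0 CPM in rPAL RNA. RNU6-1, RN7SK, VTRNA1-1 and MIRLET7A1 had no count in any of the 6 libraries.

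Of 19 tested mitochondrial tRNA genes 2 (10.5%) fell and none rose, against 7.07% of all features lower, and their median was -1.48. In 8 (42.1%) every rPAL library lay below every total library, against 26.2% of all features. MT-TR, the arginine tRNA, had 5.86, 6.31 and 2.45 CPM in total RNA and no rPAL count, at least 36.3-fold lower with the same floor and called lower (adjusted p = 0.0242, edgeR). MT-TL1, a leucine tRNA, had 2.30, 3.52 and 1.02 CPM in total RNA and 0.0982, 0.108 and 0 CPM in rPAL RNA (-4.58 ± 1.40, adjusted p = 0.0480, edgeR). The rRNA genes MT-RNR1 and MT-RNR2 were lower in every rPAL library than in any total library without a call (adjusted p = 0.0504 and 0.444). Of the 13 mitochondrial mRNA genes none was called and the median was -0.32. MT-CO1, a cytochrome c oxidase subunit, had 97.3, 126 and 70.6 CPM in total RNA and 113, 178 and 709 CPM in rPAL RNA, while MT-CO2, its neighbour subunit, had 346, 430 and 176 CPM in total RNA and 37.3, 160.4 and 76.3 CPM in rPAL RNA. Within the mRNAs rPAL replicate 3 lay above all total libraries for the first and below all of them for the second. Summed over the 13 mRNAs, rPAL replicate 3 was highest at 3258 CPM, and summed over the mitochondrial tRNAs it was lowest at 19.2 CPM.

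The second question was whether the pull-down differed from that of the cells, of small vesicles of the same line or of large vesicles of HL60, a promyelocytic leukaemia line. All these samples were wild-type. HL60 and KG1a vesicles were collected after 2 days without serum, while cells were grown with 10% serum, so cells and vesicles differ in culture as well. None of these comparisons shares a library with KG1a large vesicles. Against KG1a cells (4 libraries a group), 0 of 10442 features differed in enrichment by edgeR's interaction test at an adjusted p under 0.05, with 1498 (14.3%) at an unadjusted p under 0.05. Against HL60 large vesicles (3 libraries a group) it was 0 of 7871, with 1672 (21.2%) unadjusted, and against KG1a small vesicles (3 libraries a group) 1 of 11225 (0.00891%), with 1072 (9.55%) unadjusted. A p that misses the threshold does not show that the sources are alike.

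By their own contrasts, 8.89% of 6592 features were called higher and 9.86% lower in cells, 12.3% of 3219 higher and 18.9% lower in HL60 large vesicles, and 0.48% of 8128 higher and 6.13% lower in KG1a small vesicles. Side by side, the miRNA-related classes were depleted in all 4 sources. Precursor medians were -4.40 in large vesicles and -2.90 in cells over the 173 entries tested in both, and -4.39 and -5.13 in KG1a and HL60 large vesicles over 112. Of the 83 precursors called lower in large vesicles, 74 were also lower in cells, or 89.2% of these and 72.5% of the 102 called in cells. These classes are parts of the same libraries and are not independent of each other. Across the 4242 features tested in both, the log2 fold changes of large vesicles and cells correlated at 0.613, those of KG1a and HL60 large vesicles at 0.648 over 2680, and those of large and small vesicles at 0.629 over 5075. Of 69 features called higher in large vesicles and tested in cells, 52 were also higher in cells, or 75.4% of these and 10.6% of the 489 called in cells, and none went the opposite way. AL355075.4 was called higher in each of the other sources, with log2 fold changes of 6.51 in cells, 5.16 in HL60 large vesicles and 4.88 in small vesicles.

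Transfer RNA had opposite medians in the large vesicles of the 2 lines. Over 407 entries tested in both, the median log2 fold change was 1.37 in KG1a and -1.32 in HL60 large vesicles, where 122 entries were called lower and 1 higher. No tRNA entry passed the interaction test, 202 of the 407 had an unadjusted p under 0.05, and the median log2 difference was 3.08. Over all 453 tRNA entries of that fit the median was 2.99, and 1.47 without TMM, where the median of all features moved from 0.76 to -0.41. Without KG1a rPAL replicate 3 the same test called 637 of 9797 features (6.5%), 606 of them more enriched in KG1a, and 169 of these were tRNA entries, of 469 tested, with none the other way. In KG1a cells the tRNA median was 2.16 over 439 shared entries, with 243 called higher against 12 in large vesicles, and 0 of them differed by the interaction test. MIR7977 was called higher in cells (log2 fold change 6.04) and not in large vesicles (1.18), with a log2 difference of -4.62 ± 1.24 that did not pass the interaction test (adjusted p = 0.107). HSPA8 was at -0.95 without a call in cells and fell in HL60 large vesicles (-3.22) and KG1a small vesicles (-5.50).

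**Figure D5:**
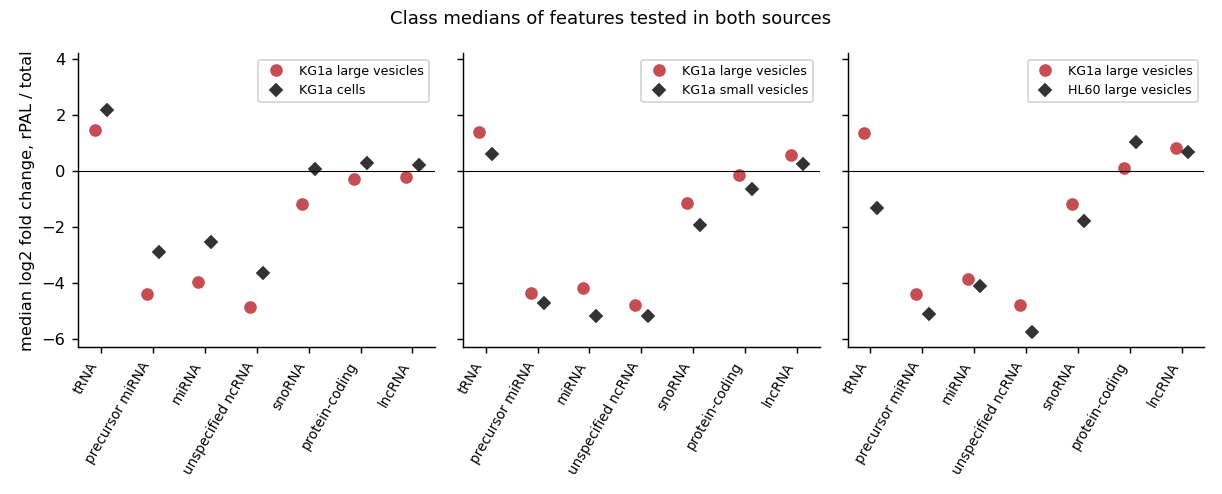
Median log2 fold change of rPAL over total RNA for 7 RNA classes in KG1a large vesicles (red circles) and, in the 3 panels, in KG1a cells, KG1a small vesicles and HL60 large vesicles (black diamonds), each over the features tested in both sources. The miRNA-related classes lie below -2.5 in every source, and tRNA lies above 0 in all but HL60 large vesicles.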

How the data were processed

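Small RNA libraries of KG1a large vesicles (3 total, 3 rPAL) were taken from a table of raw read counts per feature that the authors deposited, made with Bowtie2 and GRCh38 (hg38) per the submitters' processing notes. Tool versions, the counter, its strand setting, its handling of multi-mapping reads and the release of the annotation are not given in the sources used here, so RNAs that overlap or nearly repeat each other may share reads. Of 90127 features 3726 are RNAcentral entries, which held 76.3% of the counts of the 6 libraries, and their class is the one the table gives. Symbols and positions of 57355 features came from GENCODE 29.

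The counts entered edgeR 4.0.16 under R 4.3.3 (TMM, filterByExpr, robust quasi-likelihood, Benjamini-Hochberg over all tested features), with only the groups compared in a fit and an interaction contrast for differences between sources. Class shares are percentages of library totals and were tested by exact permutation in Python 3.11.15 (pandas 2.3.3). The test was checked on simulated counts. Alternatives were DESeq2 1.42.0, limma 3.58.1 (voom with quality weights), other scalings and filters, a replicate block, a fit over all 12 groups and each library left out. Total depth was 2869426 to 12635848 counts.

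Members and lists were chosen with earlier results of these data known. Named genes are the 12 largest changes in each direction with an adjusted p under 0.05, a symbol, 50 CPM or more on average over the 6 libraries and groups apart in every library (7 qualified as lower, and 1 of the 12 higher is not reported here), the 10 most abundant named features of each group, and a panel of 29 genes. The SNORD14 genes, MT-TR, MT-TL1, RPL11, RNA5SP194 and ENSG00000286171.1 were added with their values in view. Gene lists were matched by symbol.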

Additional observations from a re-analysis of the deposited data

Results flagged for a closer look

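One feature differed in enrichment between KG1a large and small vesicles in the test of the difference itself. CCDC138, a centrosomal protein gene, had a log2 difference of -11.82 ± 2.37 (large minus small, adjusted p = 0.0345, edgeR interaction). In small vesicles it had 6885, 39.3 and 2.89 CPM in rPAL replicates 1 to 3 and 0.964, 0.117 and 0.695 CPM in total RNA. In large vesicles it had 0.688, 0 and 0 CPM in rPAL replicates 1 to 3 and 0.237, 0.186 and 0.306 CPM in total RNA. Small vesicle rPAL replicate 1 was far above every other library, and the difference was not called with all 12 groups in 1 fit, without TMM, or without large vesicle rPAL replicate 2 or 3. Outlying single values were not searched for in these groups of 3 libraries. DESeq2 gave no adjusted p for HP, ZDHHC3, LINC01780, HMGB1P25 and CD34. In each of these genes rPAL replicate 3 of the large vesicles lay far above the other rPAL libraries.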

How the results depend on the processing

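The 599 calls (185 higher, 414 lower) became 1305 with DESeq2 (420 and 885), 1001 with edgeR's newer quasi-dispersion (365 and 636; chosen after the data were seen), 1202 with voom (191 and 1011), 323 of 557 features of at least 50 CPM (172 and 151) and 1 of 40328 with no filter, and 605 to 776 with other scalings, rRNA left out or all 12 groups fitted. Leave-one-out counts ran from 0 to 2116. The replicate block gave 233 calls (43 and 190), and 199 of the 599 were kept. Same-numbered libraries deviated together at 0.018, -0.116 and 0.096, and not every library was closest to its own number, which gives no sign of pairing, and the labels state none. Differences from cells numbered 26 without TMM and 0 to 43 over fits without 1 library; from HL60 vesicles 79 with all 12 groups, 6 without TMM and 0 to 637; from small vesicles 0 with all 12 groups, 0 without TMM and 0 to 1. With rRNA out of the totals the share differences were -3.66 points for miRNA, -5.82 for unspecified ncRNA and 0.157 for RNase P RNA, and 23.3 for tRNA (from 12.4), -0.995 for lncRNA (from -5.92) and 5.43 for protein-coding genes (from 2.16). Of 55 named features none reversed, and of the 11 named risers and 7 fallers none was called in all 6 fits without 1 library; in the fit without total replicate 1, 29 calls were lost. Depth limits rPAL replicate 3, where 3 counts are 1.05 CPM.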
